A study of Homo sapiens with 40 samples.

Results

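WSU-DLCL2 is an established human line of a fast-growing B cell tumour, diffuse large B-cell lymphoma, and it carries mutant EZH2. The response described here is the difference between its 2 arrays of cells treated with 500 nM GSK126 for 72 h and its 2 arrays of cells given 0.1% DMSO for the same time. These 4 arrays are of 40 in the study, which treated 10 lines in the same way, with 2 arrays for each line and treatment. Both groups share the line and its mutant EZH2, so no WSU-DLCL2 array shows cells with the wild type enzyme alone, and 1 line stands for 1 tumour. The growth IC50 of GSK126 in the labels was 134 nM for WSU-DLCL2, below the dose used. Among the other mutant lines it was 28 nM for Pfeiffer, 232 nM for KARPAS-422, 448 nM for SU-DHL-10, 582 nM for SU-DHL-6, 861 nM for DB and 4828 nM for SU-DHL-4. Among the wild type lines it was 516 nM for HT, 1019 nM for OCI-LY-19 and 13786 nM for Toledo. The response was measured for 15211 genes, out of 19775 genes with a probe set that names a single gene. Genes whose brightest probe set exceeded the median signal on fewer than 2 of the 40 arrays were left out.

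GSK126 is a small molecule that blocks the catalytic site of EZH2. EZH2 is the enzyme of Polycomb repressive complex 2 (PRC2), which methylates lysine 27 of histone H3, and genes under this mark are silent or weakly expressed. In germinal centre B cells, the cells from which many of these lymphomas derive, EZH2 is abundant, and it holds back genes of cell cycle exit and of differentiation towards plasma cells. Activating mutations of EZH2 raise the trimethylated form of the mark in lymphoma.

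Arrays of 1 treatment correlated over genes at 0.988 within GSK126 and 0.989 within DMSO, and arrays of different treatments at 0.974 to 0.976. The authors scaled every array to 1 trimmed mean, but the median log2 signal over all probe sets was still higher under GSK126, at 6.34 and 6.34, than under DMSO, at 6.00 and 6.16. All 6 B cell markers measured (CD79A, CD79B, MS4A1, PAX5, EBF1, CD22) and both germinal centre markers (BCL6, MME) lay above the array median on all 4 arrays. Of 4 plasma cell markers, PRDM1 and SDC1 lay below it on all 4 arrays, and XBP1 and JCHAIN lay above it on all 4. All 4 myeloid markers lay below it on every array, with a summed signal of 118 and 111 under GSK126, against 68.4 and 117 under DMSO. Of 7 T and NK cell markers 4 lay below it on every array, and the 7 summed to 385 and 549.6 under GSK126, against 400.2 and 506 under DMSO. The 5 markers of stroma and epithelium summed to 4571 and 4442 under GSK126, against 2694 and 2472 under DMSO. DCN, which encodes the matrix proteoglycan decorin, made up most of that sum, with 4219 and 4054 under GSK126, against 2317 and 2065 under DMSO. Its part in the other results was not tested. The cultures behind the 2 arrays of a group are called biological replicates without more detail, so p-values measure the spread between such arrays.

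GSK126 changed many genes in WSU-DLCL2, and the large changes were mostly rises. With limma and Benjamini-Hochberg adjustment, 2118 genes (13.9% of those tested) rose and 1928 (12.7%) fell at an adjusted p under 0.05. At least a 2-fold change was called upwards for 515 genes (3.39%) and downwards for 138 (0.907%). Fold changes are given as log2 differences, GSK126 minus DMSO, of log2(signal + 17.72), a scale that understates the change of dim genes, and each ± is a standard error from the fit. In a bulk culture, fewer cells that express a gene and less RNA per cell cannot be told apart. The median of all genes was 0.07. When arrays were brought to equal medians over the genes tested, the median was -0.05, with 1376 genes risen and 2847 fallen, so the balance of small changes rests on the scaling. Both GSK126 arrays lay above both DMSO arrays for 5548 genes (36.5%) and below both for 4012 (26.4%). Among genes called with at least a 2-fold change, 514 of the 515 risen and 137 of the 138 fallen had no overlap between the groups. A lack of overlap named below for such genes therefore describes them and adds no support to their calls.

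The genes that rose at least 2-fold were dim under DMSO more often than genes in general, though not in most cases. Of these 515 genes, 221 (42.9%) lay below the array median on both DMSO arrays, compared with 3215 of all genes tested (21.1%). Of the 221, 127 lay above it on both GSK126 arrays. Another 237 of the 515 (46.0%) lay above the median on both DMSO arrays, against 72.2% of all genes. Of the 138 that fell at least 2-fold, 7 (5.07%) lay below the median on both DMSO arrays and 122 (88.4%) above it on both, against 72.2% of all genes. After treatment 23 of them lay below it on both arrays. WSU-DLCL2 had the highest DMSO level of the 10 lines for 60 of the 138 (43.5%), against 1318 of all genes (8.66%). It had the lowest DMSO level for 71 of the 515 that rose (13.8%), against 1652 of all genes (10.9%). These DMSO levels come from the same arrays as the fold changes, so they describe the genes and support nothing further.

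**Figure D1:**
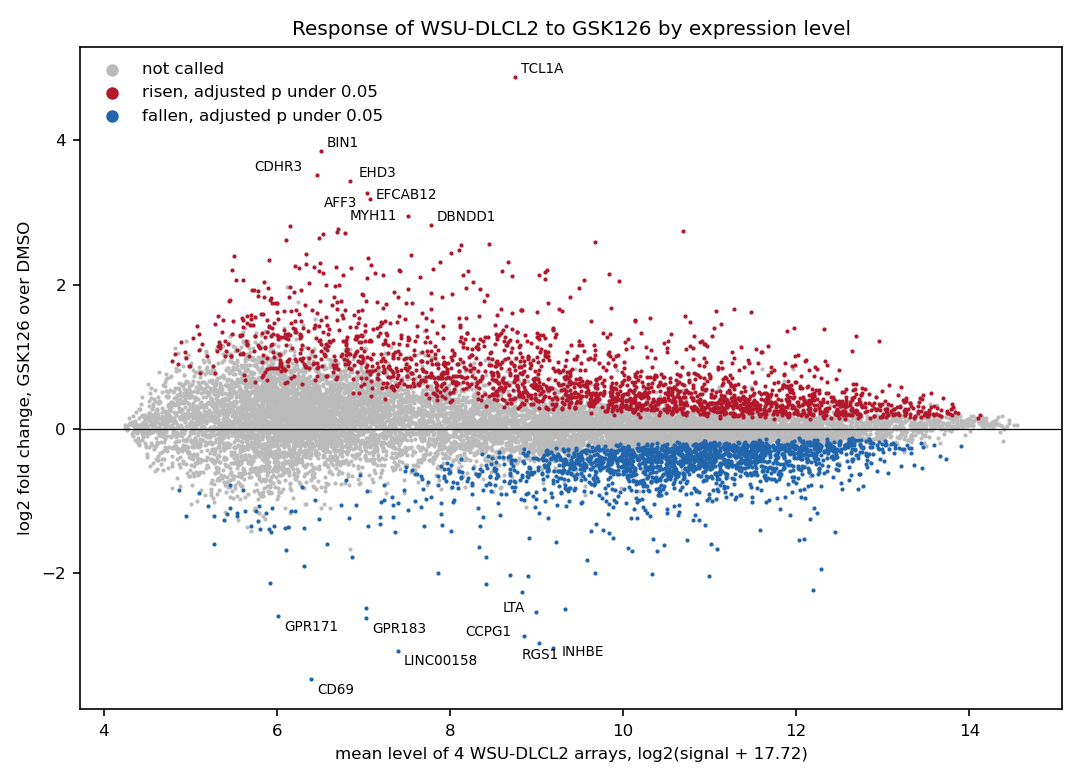
Each point is 1 of 15211 genes in WSU-DLCL2: the horizontal axis gives the mean log2(signal + 17.72) of the 4 arrays and the vertical axis the log2 fold change, GSK126 minus DMSO. Red points rose (2118 genes) and blue points fell (1928) at an adjusted p under 0.05; TCL1A lies highest, at 4.88, and CD69 lowest, at -3.47.

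TCL1A had the largest rise in WSU-DLCL2 on this scale, which shrinks the changes of dim genes: with a pseudocount of 1 the TCL1A response was 5.22 and the BIN1 response 5.54. TCL1A encodes a coactivator of the kinase AKT that is expressed in naive and germinal centre B cells, and its signal was 2275 and 2347 under GSK126, against 77.2 and 48.3 under DMSO. The 2 treated arrays lay far above both controls, at a log2 fold change of 4.88 ± 0.12 (limma adjusted p = 3.08e-21). Its neighbours TCL1B (1.59 ± 0.22) and TCL6 (1.23 ± 0.19) rose too. BIN1, which encodes a membrane-bending adaptor that also binds MYC, had 339 and 319 under GSK126, against 4.87 and 7.55 under DMSO. That is a gene near the bottom of the scale on both DMSO arrays and well above it on both treated ones, and the fold change was 3.86 ± 0.35 (adjusted p = 1.98e-09). S100A4, a small calcium-binding protein linked to cell motility, had 4298 and 4254 under GSK126, against 639.9 and 606 under DMSO. CD24, a surface glycoprotein of immature B cells, had 1928 and 2049 under GSK126, against 306 and 321 under DMSO. For both genes the replicate arrays differed little, and they rose by 2.75 ± 0.16 and 2.60 ± 0.09. SESN1, a stress-induced inhibitor of mTORC1, had 539 and 803 under GSK126, against 78.2 and 122 under DMSO. Its treated arrays differed from each other by more than those of CD24 but did not overlap with the controls (2.55 ± 0.19).

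The rest of the 20 largest rises came from genes of varied function. All 20 were picked among called genes without overlap between the groups, so their lack of overlap was set by the choice. CDHR3, a cadherin-related surface protein that serves as a rhinovirus receptor in airway cells, had 307 and 259 under GSK126, against 10.5 and 6.21 under DMSO. EHD3, an endosomal recycling protein, had 342 and 380.5 under GSK126, against 33.9 and 5.77 under DMSO. AFF3, a nuclear protein of lymphoid cells, had 392 and 388 under GSK126, against 19.6 and 35.9 under DMSO. In each case both controls lay below both treated arrays by a wide gap, with fold changes of 3.53 ± 0.31, 3.44 ± 0.24 and 3.19 ± 0.23. MYH11, smooth muscle myosin heavy chain, rose by 2.96 ± 0.30, but its other probe sets gave -0.68 to 1.74. EFCAB12 (3.27), DBNDD1 (2.82), DIPK1B (2.81), PPP1R14C (2.77), UMODL1 (2.72), DAPL1 (2.70), SPINK2 (2.65), SNORC (2.62), MAP3K20 (2.56) and DDAH1 (2.49) completed the group with IFITM3, an antiviral membrane protein (2.73 ± 0.27).

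CD69 had the largest fall on this scale. It is an activation marker of lymphocytes that holds back their exit from tissue, and its signal was 1.74 and 15.3 under GSK126, against 231 and 298 under DMSO. The treated arrays were near the bottom of the scale and both controls were not, with a fold change of -3.47 ± 0.40 (adjusted p = 1.24e-07). RGS1, which dampens chemokine receptor signalling, had 154 and 184 under GSK126, against 1806 and 1141 under DMSO. GPR183, the oxysterol receptor that guides B cells to the follicle's outer zone, had 46.9 and 25.5 under GSK126, against 358 and 264 under DMSO. LTA, lymphotoxin alpha, had 233 and 162 under GSK126, against 1174 and 1253 under DMSO. The fold changes of RGS1, GPR183 and LTA were -2.97 ± 0.27, -2.62 ± 0.42 and -2.53 ± 0.21. The leading falls named here were picked among called genes without overlap between the groups, so their lack of overlap was set by the choice. FOS, an early response transcription factor, had 21.4 and 60.8 under GSK126, against 304 and 279 under DMSO. INHBE, an inhibin chain induced by amino acid stress, had 204 and 170.2 under GSK126, against 1769 and 1554 under DMSO. Both fell without overlap, with fold changes of -2.48 ± 0.34 and -3.04 ± 0.30. WARS1, the tryptophanyl-tRNA synthetase, had 2352 and 1972 under GSK126, against 11730 and 8813 under DMSO, a fold change of -2.23 ± 0.13. FAS, the death receptor, had 201 and 237 under GSK126, against 941 and 971 under DMSO, with no overlap and a fold change of -2.05 ± 0.22. ERN1, the endoplasmic reticulum stress sensor IRE1, fell on its brightest probe set (-2.27 ± 0.21), while its other probe sets gave -1.08 to 0.43. The other leading falls were those of LINC00158 (-3.07), CCPG1 (-2.87), the orphan receptor GPR171 (-2.60), LRRTM4-AS1 (-2.50), the kinase SGK1 (-2.15) and the chemokine CXCL10 (-2.14).

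**Figure D2:**
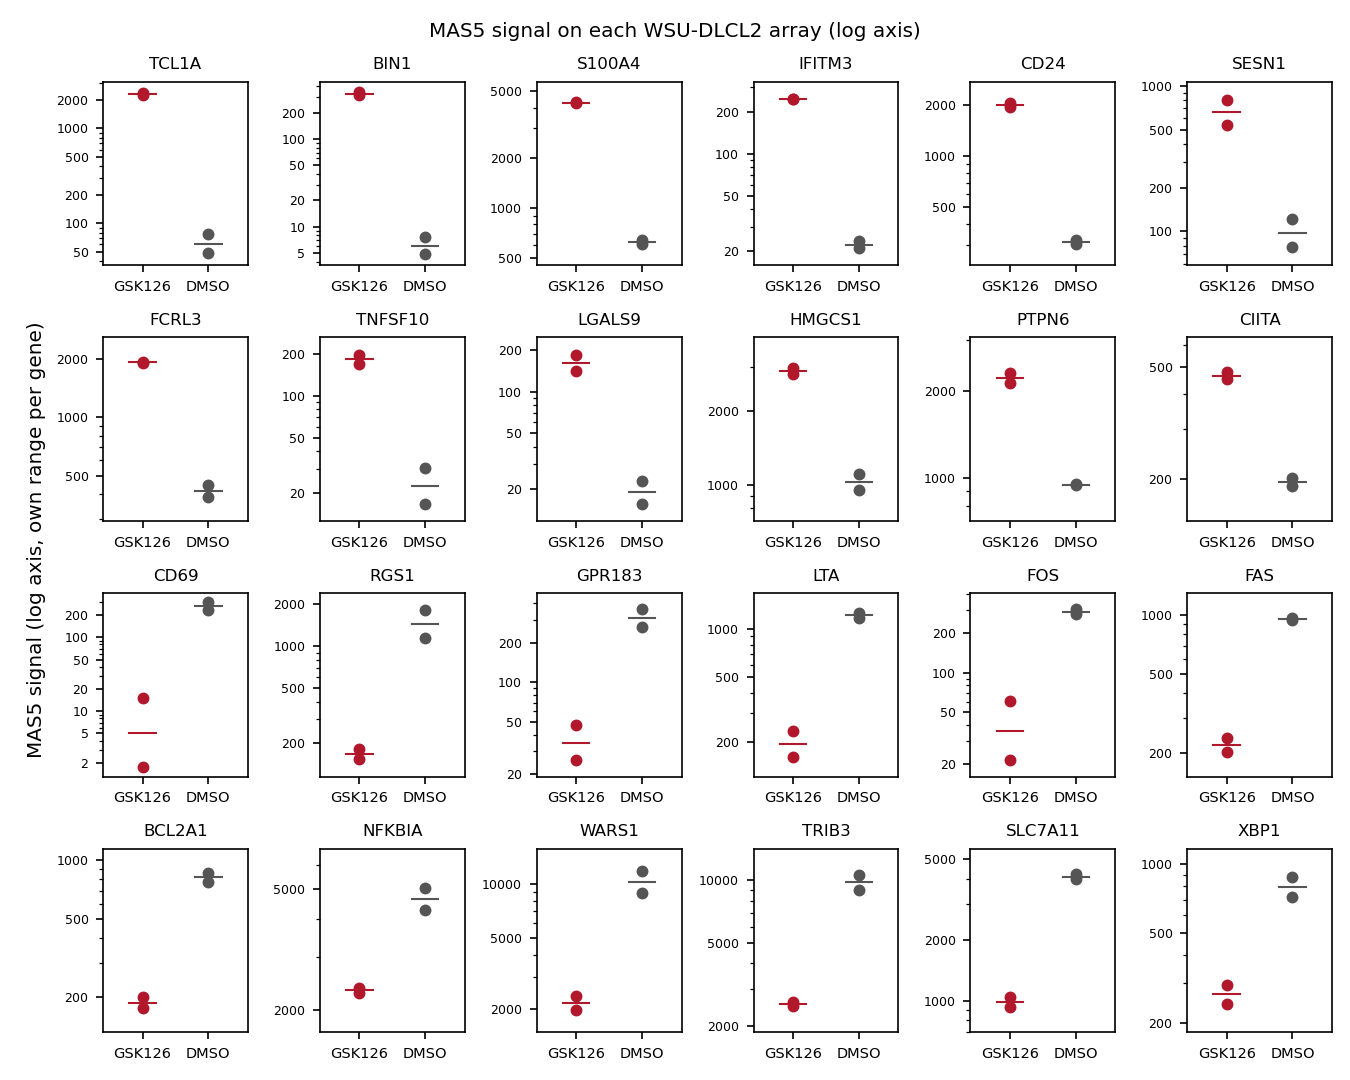
MAS5 signal on a log axis of 24 genes in WSU-DLCL2, 1 panel each, with the 2 GSK126 arrays to the left of the 2 DMSO arrays as points; the bar is the geometric mean of the 2 arrays. In every panel the 2 groups are apart, from TCL1A at 2275 and 2347 under GSK126 against 77.2 and 48.3 under DMSO to CD69 at 1.74 and 15.3 against 231 and 297.6. The largest rises and falls among these genes were picked for having no overlap.

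Some genes of the B cell surface and of the B cell receptor rose. Of 16 other B cell surface genes 9 rose and 1 fell (median 0.41), and of 10 receptor chains and coreceptors 4 rose and 0 fell (median 0.24). With arrays at equal medians these were 7 risen and 1 fallen, and 2 risen and 0 fallen. CXCR5, the receptor that brings B cells into follicles, had 296 and 257 under GSK126, against 82.2 and 80.7 under DMSO. It rose by 1.57 ± 0.29, beside CD52 (0.94 ± 0.11), CD37 (0.89 ± 0.12; not called on the mean of its probe sets) and CD79B, a signalling chain of the receptor (0.85 ± 0.06). FCGR2B, the inhibitory Fc receptor of B cells, rose by 1.65 ± 0.25, a value open to error because FCGR2C is nearly identical in sequence and rose as well. FCRL3, a receptor of the Fc receptor-like family, had 1902 and 1930 under GSK126, against 445 and 389.5 under DMSO. With FCRL2 (1.14 ± 0.21) it was 1 of 2 members risen of 8 in that family, whose median was 0.61.

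Kinases and adaptors of B cell receptor signalling moved in both directions. PTPN6, the phosphatase SHP-1 that is recruited by inhibitory receptors, had 2308 and 2132 under GSK126, against 949 and 943 under DMSO. Its fold change was 1.21 ± 0.12, and the kinases PRKCB (1.11 ± 0.27), BTK (0.64 ± 0.10) and SYK (0.55 ± 0.06) also rose. Of 23 such genes 8 rose and 4 fell, with a median of 0.08, close to the 0.07 of all genes. The 4 that fell were PIK3CD (-0.63 ± 0.21), RASGRP3 (-0.52 ± 0.15), GRB2 (-0.24 ± 0.07) and PAG1, an adaptor that holds back Src family kinases (-0.26 ± 0.08). Among 21 B cell transcription factors 8 rose and 3 fell. ID3, an inhibitor of E proteins, had 5088 and 4894 under GSK126, against 1613 and 1605 under DMSO and rose by 1.62 ± 0.10, and BCL11A rose by 0.60 ± 0.07. MEF2C, a factor of B cell survival and proliferation, fell (-0.74 ± 0.08). PAX5 (0.11 ± 0.13, adjusted p = 0.619) and EBF1 (0.02 ± 0.10, adjusted p = 0.919) did not pass the test. Of 14 early B cell genes 4 rose, TCL1A among them with VPREB3, a chain of the pre-B cell receptor pathway (0.73 ± 0.06), and SOX4 fell (-0.99 ± 0.12).

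Germinal centre and plasma cell genes had risen and fallen members. Of 25 germinal centre genes 7 rose and 1 fell, with a median of 0.14 against 0.07 over all genes. BACH2, a repressor that keeps B cells from becoming plasma cells, had 6605 and 6445 under GSK126, against 2303 and 2606 under DMSO. MAML3, a Notch coactivator, had 1874 and 1834 under GSK126, against 749 and 707 under DMSO. Both rose without overlap, by 1.41 ± 0.16 and 1.33 ± 0.18, while BCL6 (0.01 ± 0.08) and MME (0.04 ± 0.06), the defining markers, stayed uncalled. Of 23 plasma cell genes 7 rose (4 without DMSO replicate 2) and 2 fell, with a median of 0.20. MZB1, a chaperone of antibody assembly, rose by 0.86 ± 0.09 and CD27 by 0.55 ± 0.11. XBP1, the factor that builds the secretory apparatus, had 295 and 243 under GSK126, against 879 and 715 under DMSO, a fold change of -1.51 ± 0.16, and PRDM1, the master repressor of the plasma cell programme, was 0.20 ± 0.36 (adjusted p = 0.761).

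Memory and activation genes were split, 5 risen and 5 fallen of 19. The falls were GPR183, FAS, CD80, a costimulatory ligand (-1.10 ± 0.18), CCR7 and ITGAX. CCR7, the receptor for lymph node entry, was -1.25 ± 0.37 (not called without GSK126 replicate 1, adjusted p = 0.0758, or without DMSO replicate 2, adjusted p = 0.0938). ITGAX was -1.09 ± 0.39 (not called without GSK126 replicate 1, adjusted p = 0.0534, or without GSK126 replicate 2, adjusted p = 0.231, or without DMSO replicate 2, adjusted p = 0.259). The count of falls was 3 without GSK126 replicate 1 or DMSO replicate 2. AIM2, a DNA sensor of memory B cells, rose by 1.31 ± 0.24 and HHEX, a factor of memory B cells in the mouse, by 0.65 ± 0.09. Among 17 homing and egress receptors 4 rose and 3 fell. CCR6, a chemokine receptor of memory B cells, rose by 1.61 ± 0.36 beside CXCR5. Of 19 ligands seen by T cells, the adhesion ligands CD58 (-0.83 ± 0.11) and ICAM1 (-1.05 ± 0.27) fell with CD80. LGALS9, galectin-9, had 184 and 142 under GSK126, against 15.6 and 22.6 under DMSO, and VSIR, the checkpoint protein VISTA, had 337 and 361 under GSK126, against 48.1 and 79.3 under DMSO. These 2 inhibitory ligands rose, by 2.29 ± 0.31 and 2.20 ± 0.30, with no overlap between groups.

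Among genes that NF-kB and early activation signals switch on, more fell than rose. NF-kB factors are held in the cytoplasm by inhibitor proteins, and once freed they switch on target genes that include those same inhibitors, which ends the signal. Of 11 feedback genes 7 fell and 0 rose (median -0.41), of 23 target genes 10 fell and 2 rose (median -0.35), and of 17 subunits and activators 8 fell and 3 rose (median -0.18). Over all genes 13.9% rose and 12.7% fell. The feedback genes NFKBIA, which encodes the inhibitor IkB-alpha, and TNFAIP3, which encodes the ubiquitin-editing enzyme A20, are shown here because their promoters hold the kappa-B consensus, in capitals, in RefSeq's GRCh38.p14 sequence. NFKBIA's window is chr14:35404730-35404949 on the minus strand and TNFAIP3's chr6:137867059-137867278 on the plus strand, each from 200 bases before the gene's start to 20 after it.
NFKBIA: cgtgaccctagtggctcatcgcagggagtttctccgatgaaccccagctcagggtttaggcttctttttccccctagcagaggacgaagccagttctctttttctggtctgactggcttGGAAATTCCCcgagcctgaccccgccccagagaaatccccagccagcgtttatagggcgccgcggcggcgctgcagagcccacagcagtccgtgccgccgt
TNFAIP3: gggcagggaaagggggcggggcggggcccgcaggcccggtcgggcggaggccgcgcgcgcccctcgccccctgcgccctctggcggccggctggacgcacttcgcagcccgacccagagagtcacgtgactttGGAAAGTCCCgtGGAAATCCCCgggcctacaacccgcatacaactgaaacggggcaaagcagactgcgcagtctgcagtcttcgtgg
The consensus starts 81 bases before the start of NFKBIA, and 67 and 55 bases before that of TNFAIP3. It was searched on both strands in windows from 250 bases before to 50 after the start, which the RefSeq table held for 12112 of the genes tested. It was present in 3 of 10 feedback promoters (NFKBIA, NFKBIZ and TNFAIP3), 5 of 22 target promoters and 3 of 15 subunit promoters, against 812 of all 12112 (6.7%). A match in letters is a description and does not show that a factor binds.

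TNFAIP3 had 694 and 686 under GSK126, against 1649 and 1660 under DMSO, and NFKBIA had 2376 and 2283 under GSK126, against 5026 and 4282 under DMSO. In both the treated arrays differed little from each other and lay far below both controls, with fold changes of -1.24 ± 0.16 and -0.99 ± 0.10. NFKBIA was not called on the mean of its probe sets. OTULIN, which removes linear ubiquitin chains (-0.92 ± 0.13), and NFKBIZ, a nuclear IkB protein (-0.84 ± 0.10), fell as well. Among the targets, BCL2A1, an antiapoptotic BCL2 relative, had 200.3 and 177 under GSK126, against 779.5 and 860 under DMSO. EBI3, a cytokine subunit, fell (-1.77 ± 0.36), as did IRF1, an interferon-regulatory factor (-0.71 ± 0.12). TNF was -0.71 ± 0.22 (not called without GSK126 replicate 2, adjusted p = 0.116, or without DMSO replicate 1, adjusted p = 0.0554, or without DMSO replicate 2, adjusted p = 0.095). BATF, a partner of IRF4 in activated B cells, rose by 1.25 ± 0.31 (not called without DMSO replicate 1, adjusted p = 0.179), while IRF4 itself was -0.26 ± 0.18 (adjusted p = 0.322). Of the subunits, NFKB1 (-0.68 ± 0.07), RELB (-0.85 ± 0.15) and the kinase MAP3K14 (-0.74 ± 0.15) fell, and REL (0.44 ± 0.07) and the adaptor MYD88 (0.65 ± 0.07) rose. RELA was 0.00 ± 0.09 (adjusted p = 0.988). NFKB2 was -0.99 ± 0.34 (not called without any 1 of the 4 arrays, limma adjusted p = 0.055 to 0.19), and with 1 array left out 3 or 4 of the 17 genes fell.

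Immediate early genes, which respond within minutes to receptor signals, had 13 of 25 members fallen and 2 risen, with a median of -0.48. JUN, the partner of FOS, had 585 and 599.6 under GSK126, against 1945 and 1975 under DMSO. DUSP5 (-1.64 ± 0.21) and DUSP6 (-1.59 ± 0.30), phosphatases that switch off the kinase ERK, and the transcription factor EGR1 (-1.53 ± 0.19) fell beside it. MYC, the growth-promoting transcription factor, went the other way with 7798 and 8019 under GSK126, against 4919 and 5921 under DMSO. It rose by 0.55 ± 0.07, and of 29 MYC target and ribosome biogenesis genes 7 rose and 5 fell (4 or 5 and 1 to 3 with 1 array left out). ID1, an inhibitor of E proteins that also responds to BMP signals, had 1119 and 1046 under GSK126, against 224 and 239.8 under DMSO and rose by 2.14 ± 0.20. Of 22 genes of MAPK feedback and small GTPase regulation 6 rose and 6 fell. RGS16 (-2.01 ± 0.09) and RGS2 (-0.73 ± 0.08) fell with RGS1, and the Ras inhibitor RASAL1 rose by 1.44 ± 0.18. Of 21 TNF ligands and receptors 2 rose and 5 fell (3 without DMSO replicate 1). TNFSF10, the death ligand TRAIL, had 198 and 170 under GSK126, against 16.8 and 30.4 under DMSO and rose by 2.30 ± 0.27, and its receptor TNFRSF10B fell (-0.55 ± 0.09; not called on the mean of its probe sets).

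**Figure D3:**
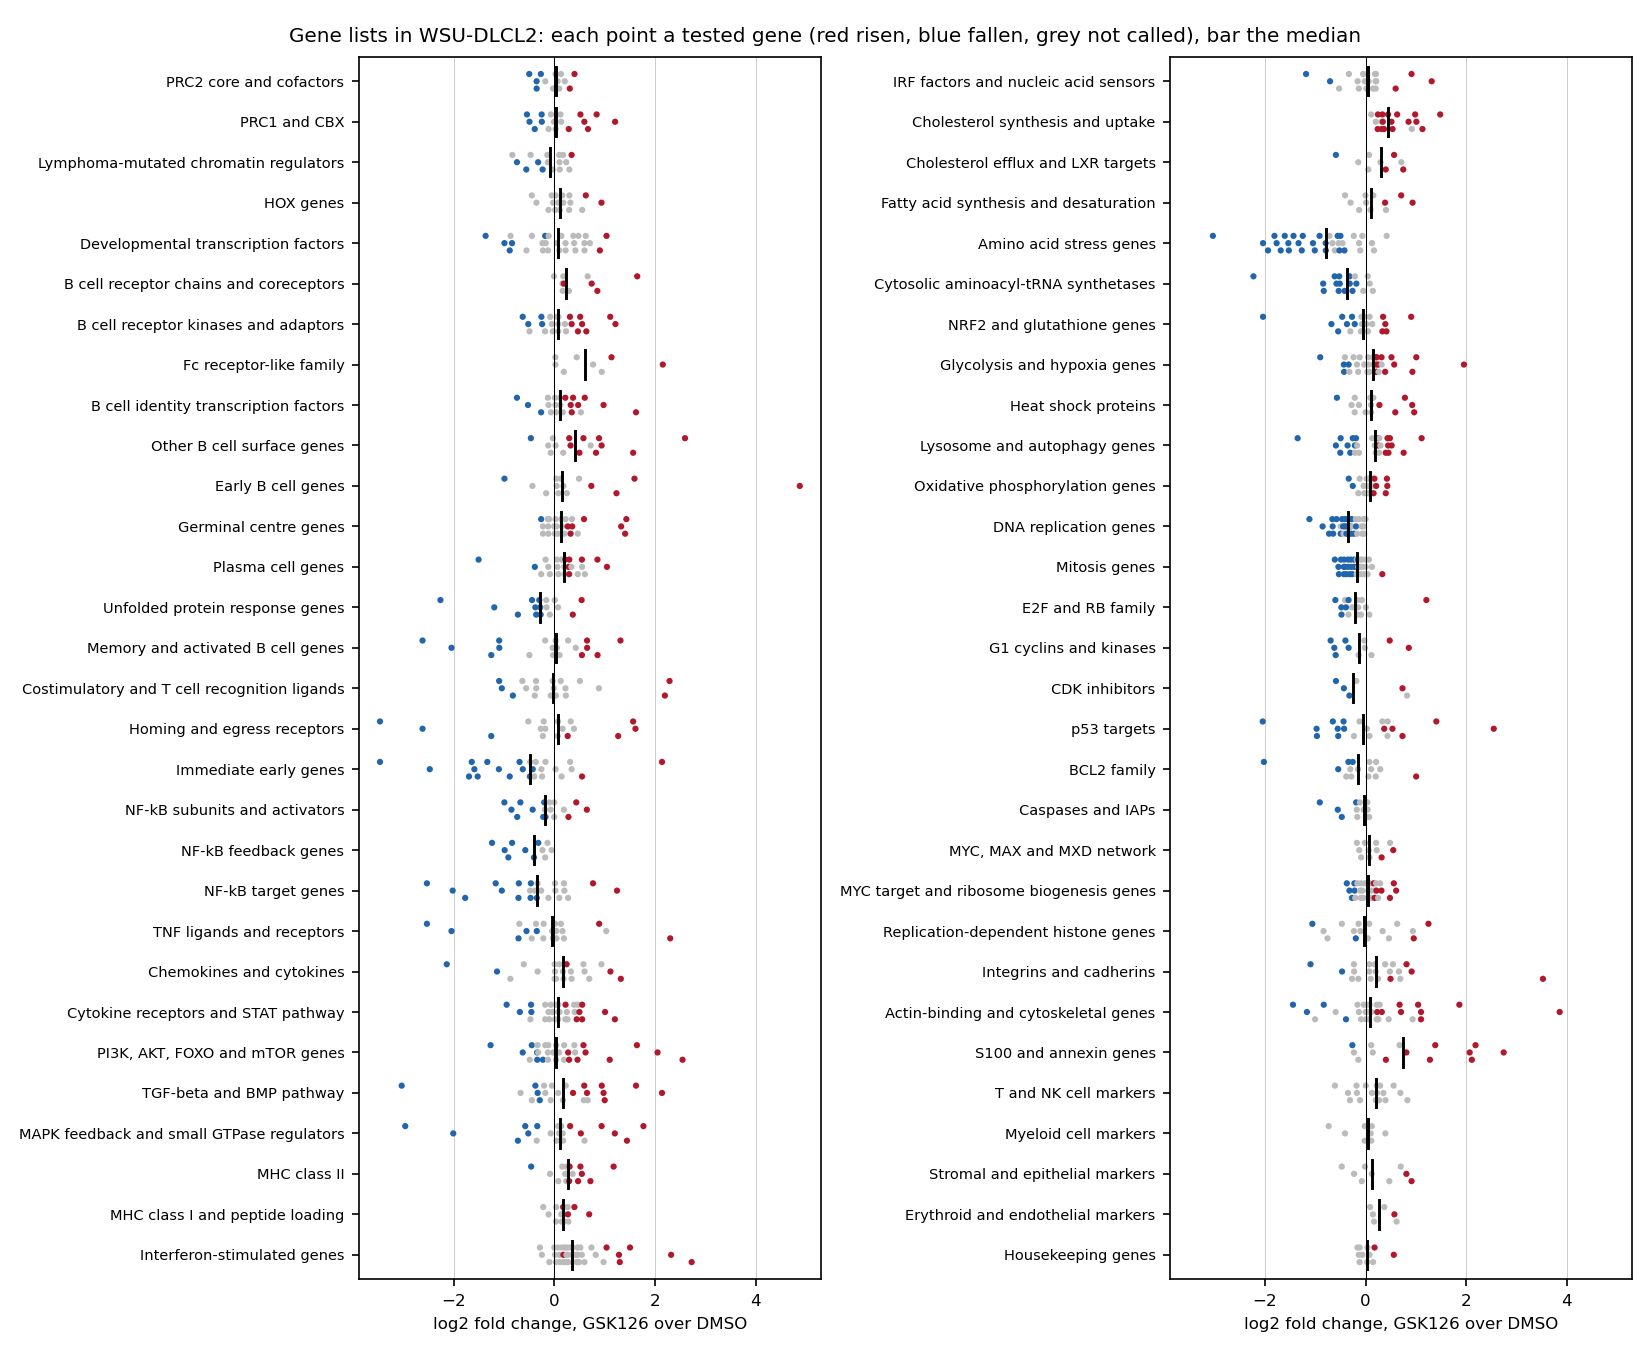
Log2 fold change of every tested member of the gene lists in WSU-DLCL2, GSK126 minus DMSO, 1 row per list; red points rose and blue points fell (limma, adjusted p under 0.05), grey points did not pass the test, and the bar marks the list's median. The medians of amino acid stress genes, tRNA synthetases and NF-kB feedback genes lie left of 0, at -0.79, -0.37 and -0.41, and that of cholesterol genes right of it, at 0.45.

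Amino acid stress genes fell in WSU-DLCL2, 22 of 34 with 0 risen, and 15 of them fell at least 2-fold. Cells that lack an amino acid translate the transcription factor ATF4, which switches on genes of amino acid transport and synthesis, the tRNA synthetases that charge tRNAs, and stress proteins. The list's median was -0.79, and that of 18 cytosolic tRNA synthetases, 13 fallen and 0 risen, was -0.37. TARS1 and AARS1, the synthetases for threonine and alanine, are shown because their promoters hold the core of the C/EBP-ATF response element, the binding site of ATF4 (TGATGNAA, in capitals, on either strand). The windows are chr5:33440765-33440984 on the plus strand for TARS1, the first of 2 in the table, and chr16:70289487-70289706 on the minus strand for AARS1.
TARS1: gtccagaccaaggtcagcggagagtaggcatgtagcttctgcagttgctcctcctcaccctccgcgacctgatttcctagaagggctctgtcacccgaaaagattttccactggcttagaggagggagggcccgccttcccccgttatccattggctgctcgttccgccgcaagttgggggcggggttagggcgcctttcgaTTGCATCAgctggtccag
AARS1: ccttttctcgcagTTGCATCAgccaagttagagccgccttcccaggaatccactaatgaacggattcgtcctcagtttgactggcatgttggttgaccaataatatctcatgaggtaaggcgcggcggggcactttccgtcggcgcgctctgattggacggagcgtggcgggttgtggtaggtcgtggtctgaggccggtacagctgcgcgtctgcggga
The element lies just after the start of TARS1 and 187 bases before that of AARS1. It was found in 5 of 15 synthetase promoters (AARS1, CARS1, IARS1, NARS1 and TARS1), all of them genes that fell, and in 5 of 28 amino acid stress promoters. Over all 12112 promoters 262 held it (2.16%).

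TRIB3, a pseudokinase that inhibits ATF4, had 2601 and 2477 under GSK126, against 10650 and 9004 under DMSO. SLC7A11, the cystine transporter, had 1041 and 931 under GSK126, against 4226 and 3983 under DMSO. DDIT3, the stress factor CHOP, had 785 and 686 under GSK126, against 2424 and 2381 under DMSO. All of these fell without overlap, with fold changes of -1.94 ± 0.12, -2.04 ± 0.17 and -1.69 ± 0.16, and WSU-DLCL2 had the highest DMSO level of SLC7A11 among the 10 lines. PPP1R15A, which restarts translation after stress (-1.81 ± 0.14), the lipoprotein receptor VLDLR (-1.77 ± 0.24) and SESN2, the sestrin induced by ATF4 (-1.27 ± 0.19), fell too. ATF4 mRNA had 13190 and 12860 under GSK126, against 14390 and 12900 under DMSO, groups that overlapped, and did not pass the test (-0.07 ± 0.07, adjusted p = 0.59). Among synthetases, TARS1 had 3211 and 3047 under GSK126, against 5570 and 5684 under DMSO, and AARS1 had 5525 and 4576 under GSK126, against 9261 and 8672 under DMSO. They fell, with fold changes of -0.84 ± 0.07 and -0.83 ± 0.10, beside CARS1 (-0.62 ± 0.08), SARS1 (-0.58 ± 0.06) and GARS1 (-0.54 ± 0.09).

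The unfolded protein response, a stress response of the secretory pathway, was mixed, with 9 of 16 genes fallen and 2 risen (median -0.28). SEL1L, of the degradation complex in the endoplasmic reticulum, had 1214 and 1160 under GSK126, against 2635 and 2848 under DMSO and fell (-1.19 ± 0.07). The chaperone HYOU1 (-0.73 ± 0.09) and the cochaperone DNAJC3 (-0.44 ± 0.06) fell with ERN1 and XBP1. HSPA5, the main chaperone BiP, had 5644 and 5882 under GSK126, against 3957 and 3950 under DMSO and rose by 0.54 ± 0.07. Redox genes under the factor NRF2 were also split, 5 risen and 7 fallen of 22 (2 to 4 and 4 to 7 with 1 array left out). GCLM, a subunit of the glutathione-making enzyme, fell (-0.68 ± 0.06) and GPX1, a peroxidase, rose by 0.39 ± 0.06.

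Cholesterol synthesis genes rose, 15 of 19 with 0 fallen and a median of 0.45. With arrays at equal medians 12 rose and 0 fell. These enzymes are switched on together by the factor SREBF2 when membranes run short of cholesterol. HMGCS1, which makes the precursor of mevalonate, had 2980 and 2816 under GSK126, against 948 and 1108 under DMSO, a rise of 1.48 ± 0.27 (adjusted p = 0.000131). TM7SF2, a sterol reductase, had 1778 and 1822 under GSK126, against 766 and 862 under DMSO. LSS, lanosterol synthase, had 3448 and 3510 under GSK126, against 1854 and 1650 under DMSO. INSIG1, the sensor that stops the pathway, had 4301 and 4634 under GSK126, against 2483 and 2442 under DMSO. In each the treated arrays lay above both controls, by 1.13 ± 0.13, 0.99 ± 0.08 and 0.85 ± 0.07, and MSMO1 (1.01 ± 0.08) and SQLE (0.63 ± 0.04) rose with them. SREBF2 mRNA did not pass the test (0.11 ± 0.14, adjusted p = 0.637). HMGCS1's promoter is shown with its CCAAT boxes, the letters bound by NF-Y, in capitals. It spans chr5:43313393-43313612 on the minus strand, the first of 2 windows in the table.
HMGCS1: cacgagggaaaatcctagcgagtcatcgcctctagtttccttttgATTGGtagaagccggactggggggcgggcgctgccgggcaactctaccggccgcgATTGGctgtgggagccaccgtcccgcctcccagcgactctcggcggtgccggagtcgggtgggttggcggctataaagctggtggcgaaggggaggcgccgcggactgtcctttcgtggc
The boxes are on the opposite strand, 155 and 100 bases before the start. A CCAAT box was in 15 of 17 cholesterol gene promoters, against 4416 of all 12112 (36.5%), and the sterol element searched (TCACNCCAC) in 1, that of SREBF2, against 129 of all (1.07%).

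Among genes of fatty acid synthesis 3 of 11 rose and 0 fell. They were the desaturases SCD (0.39 ± 0.06) and SCD5 (0.93 ± 0.09) and FASN, fatty acid synthase (0.71 ± 0.09; not called on the mean of its probe sets). Of 9 genes of cholesterol efflux and of the receptor LXR 3 rose and 1 fell. MYLIP, a ubiquitin ligase switched on by LXR, rose by 0.75 ± 0.08. NPC1, a lysosomal exporter of cholesterol, fell on its brightest probe set (-0.59 ± 0.10), and the mean of its probe sets gave 0.10. Glycolysis and hypoxia genes had 13 of 32 risen and 4 fallen (median 0.15), with 8 risen without either GSK126 array and 6 without DMSO replicate 2. PFKFB4, which makes an activator of glycolysis, had 625 and 489.7 under GSK126, against 162 and 103 under DMSO and rose by 1.95 ± 0.25, while VEGFA, the vascular growth factor, fell (-0.90 ± 0.15).

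Most replication genes and many mitosis genes showed small falls. Of 37 DNA replication genes 25 fell and 0 rose (median -0.35), and of 36 mitosis genes 19 fell (11 without GSK126 replicate 2) and 1 rose (median -0.18). CDC6, which loads the replicative helicase, is shown as an example of an E2F motif (TTTGGCGC or TTTCCCGC, in capitals, on either strand), the site of the factors that time S phase. Its window is chr17:40287679-40287898 on the plus strand, and the motif lies just after the start.
CDC6: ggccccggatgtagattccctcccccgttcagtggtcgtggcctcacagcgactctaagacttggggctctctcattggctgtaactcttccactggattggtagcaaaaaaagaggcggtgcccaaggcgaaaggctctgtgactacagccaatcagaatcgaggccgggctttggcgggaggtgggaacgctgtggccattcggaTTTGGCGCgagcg
Of 33 replication promoters 17 held 1 of the forms, 12 of them in genes that fell, against 411 of all 12112 (3.39%). CDC6 had 938 and 1073 under GSK126, against 1981 and 1687 under DMSO, and CDC45, a part of the helicase, had 871 and 752 under GSK126, against 1852 and 1704 under DMSO. Both fell without overlap, with fold changes of -0.85 ± 0.07 and -1.12 ± 0.13, followed by MCM10 (-0.73 ± 0.06), ORC1 (-0.66 ± 0.10) and DTL (-0.66 ± 0.06). Of mitosis genes AURKB, a kinase of chromosome segregation, fell (-0.61 ± 0.08; not called on the mean of its probe sets), as did NDC80, a kinetochore protein (-0.54 ± 0.07). KIF20A, a kinesin of cytokinesis, was the member that rose (0.33 ± 0.07).

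The regulators above them moved both ways. Of 16 E2F and RB genes 5 fell (3 without either DMSO array) and 1 rose. E2F1 fell (-0.48 ± 0.12; not called without DMSO replicate 2, adjusted p = 0.0805), E2F3 fell (-0.39 ± 0.09), and TFDP2, an E2F partner, rose by 1.21 ± 0.15. Of 11 G1 cyclins and kinases 5 fell, CDK6 (-0.59 ± 0.07) and CDK7 (-0.70 ± 0.08) among them, and 2 rose. Of 6 CDK inhibitors 1 rose and 3 fell. CDKN2D (-0.59 ± 0.17; not called without GSK126 replicate 1, adjusted p = 0.0615, or without DMSO replicate 2, adjusted p = 0.0934; nor on the mean of its probe sets), CDKN1B (-0.43 ± 0.09) and CDKN3 (-0.32 ± 0.05) fell, and CDKN1A, which encodes p21, was 0.73 ± 0.27 (adjusted p = 0.0453; not called without any 1 of the 4 arrays, limma adjusted p = 0.0904 to 0.201). Of 20 p53 targets 5 rose (3 without GSK126 replicate 2 or DMSO replicate 2) and 8 fell. TP53INP1 rose by 1.41 ± 0.17, and AEN (-0.97 ± 0.19), TIGAR (-0.97 ± 0.11) and DDB2 (-0.65 ± 0.12) fell. In the BCL2 family BMF, a killer protein of this family, rose (1.01 ± 0.21) and 4 of 15 fell, among them the killers BCL2L11, or BIM (-0.34 ± 0.06), and PMAIP1, or NOXA (-0.54 ± 0.11), beside the protective BCL2A1. CASP6 (-0.91 ± 0.10) and CASP8 (-0.55 ± 0.12), cell death proteases, fell.

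The PRC2 genes themselves showed small changes. Of 13 PRC2 genes 2 rose and 4 fell, all by less than 2-fold. EZH2, the target of GSK126, had 2560 and 2627 under GSK126, against 3334 and 3300 under DMSO, a fold change of -0.35 ± 0.06 (adjusted p = 1.63e-05). MTF2, which brings PRC2 to CpG islands, fell (-0.50 ± 0.06), as did the core subunit EED (-0.35 ± 0.05; not called on the mean of its probe sets). SUZ12 (-0.18 ± 0.07, adjusted p = 0.067) and EZH1 (0.21 ± 0.10, adjusted p = 0.126) did not pass the test. The cofactor JARID2 was 0.40 ± 0.13 (not called without GSK126 replicate 1, adjusted p = 0.713, or without DMSO replicate 2, adjusted p = 0.165). KDM6B, a demethylase that removes the PRC2 mark, fell (-0.65 ± 0.13). Of 17 PRC1 genes 6 rose and 5 fell (2 without GSK126 replicate 2 or DMSO replicate 2), with PHC1 at 0.84 ± 0.13 and PCGF2 at 1.21 ± 0.21 (not called on the mean of its probe sets). Of 16 chromatin regulators mutated in lymphoma 1 rose and 4 fell, among them NSD2, a histone methyltransferase (-0.56 ± 0.09). Of 17 HOX genes 2 rose and 0 fell, and of 28 developmental transcription factors, classic Polycomb targets, 2 rose and 5 fell (3 without any 1 of the 4 arrays). Over all genes 13.9% rose and 12.7% fell, and whether the HOX and developmental lists differ from these shares was not tested.

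Members of several families rose. Of 14 S100 and annexin genes 8 rose and 1 fell, with a median of 0.74 (0.62 with arrays at equal medians). S100A10, the partner of annexin A2, had 1609 and 1428 under GSK126, against 320.2 and 377 under DMSO. ANXA4, a membrane-binding protein, had 386 and 413 under GSK126, against 78.5 and 79.1 under DMSO. S100A6 had 684 and 546 under GSK126, against 112 and 130.2 under DMSO. No group overlapped in these, which rose by 2.07 ± 0.30, 2.11 ± 0.25 and 2.19 ± 0.48, and ANXA2 rose by 1.28 ± 0.11. Of 16 MHC class II genes 7 rose and 1 fell (median 0.27; 5 risen and 1 fallen with arrays at equal medians). CIITA, the master activator of the class, had 479 and 452 under GSK126, against 189 and 202 under DMSO and rose by 1.18 ± 0.24 on its brightest probe set, but its other probe sets gave -0.09 to 0.19 and their mean was not called. HLA-DOA (0.72 ± 0.09), HLA-DMA (0.55 ± 0.06) and HLA-DRA (0.47 ± 0.10) rose.

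Of 39 interferon-stimulated genes 7 rose, a share near the 13.9% of all genes, and 0 fell, against 12.7%. Their median was 0.35, against 0.07 over all genes. A rise of at least 2-fold was called for 6 of the 39, against 3.39% of all genes. Of the 7 that rose, 3 were the neighbouring IFITM genes. IFITM2 had 493 and 524 under GSK126, against 108 and 70.5 under DMSO and rose by 2.32 ± 0.20, and IFITM1 rose by 1.04 ± 0.12. The IFITM genes are close copies, so their probe sets may share signal with each other. HERC6 (1.50 ± 0.28), IFI6 (1.30 ± 0.27) and MX2 (1.28 ± 0.26) were the others with IFI16, at 0.18 ± 0.06 (not called without any 1 of the 4 arrays, limma adjusted p = 0.0527 to 0.157). Among 30 genes of the PI3K, AKT, FOXO and mTOR pathways 9 rose and 6 fell. TXNIP, which binds thioredoxin and limits glucose uptake, had 3647 and 3908 under GSK126, against 1168 and 1230 under DMSO. SESN3, a sestrin switched on by FOXO factors, had 1963 and 2041 under GSK126, against 432 and 509.8 under DMSO. Both rose without overlap, by 1.64 ± 0.11 and 2.05 ± 0.30, so SESN1 and SESN3 rose while SESN2 fell. In the TGF-beta and BMP pathway 8 of 23 rose and 4 fell. The receptors TGFBR1 (1.00 ± 0.12) and ACVR1B (0.94 ± 0.10) and the BMP targets ID1, ID2 (0.98 ± 0.17) and ID3 rose, and INHBE fell.

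Genes next to each other on a chromosome rose together in a few places. Of the 515 genes that rose at least 2-fold, 54 (10.5%) had another of them as the nearest tested gene on either side, against 1014 of 15193 placed genes (6.67%) with such a neighbour. For the 138 that fell this was 6 (4.35%), against 275 (1.81%). Examples, chosen after their values were seen, are TCL6, TCL1B and TCL1A on chromosome 14, IFITM2, IFITM1 and IFITM3 on chromosome 11, and the pairs S100A6 with S100A4 and FCRL3 with FCRL2 on chromosome 1.

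The response was set against those of the other lines to find what differed. In limma, 1260 genes (8.28%) responded more positively and 1516 (9.97%) more negatively in WSU-DLCL2 than in the mean of the other 9 lines. Leaving out GSK126 replicate 2 of WSU-DLCL2 lowered these counts to 762 and 992. Of the 138 genes that fell at least 2-fold, 128 were lower than in the other lines, and of the 515 that rose, 327 were higher, counts that share the WSU-DLCL2 arrays with the choice of these genes. The other lines' own arrays gave a different measure. Of the 515 genes, 154 rose in no other line and 69 rose in 5 or more. These counts are given without the share over all genes, so they do not show responses particular to WSU-DLCL2. In Pfeiffer 173 of the 515 rose and 8 fell, against 14.6% and 9.93% of all genes. In KARPAS-422 209 rose and 10 fell, against 15.5% and 13.4%. In SU-DHL-10 215 rose and 7 fell, against 11% and 7.16%. The median change of the 515 was 0.45 in Pfeiffer, 0.53 in KARPAS-422 and 0.58 in SU-DHL-10. Of the 138 genes, 75 fell in no other line and 4 fell in 5 or more, again without the share over all genes. In Pfeiffer 21 of them fell and 20 rose, against 9.93% and 14.6% of all genes, and in KARPAS-422 28 fell and 19 rose, against 13.4% and 15.5%. In SU-DHL-10 falls outnumbered rises, with 45 of the 138 fallen, 7 risen and the rest not called, against 7.16% and 11% of all genes. In HT 22 fell and 3 rose, against 3% and 6.31%.

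**Figure D4:**
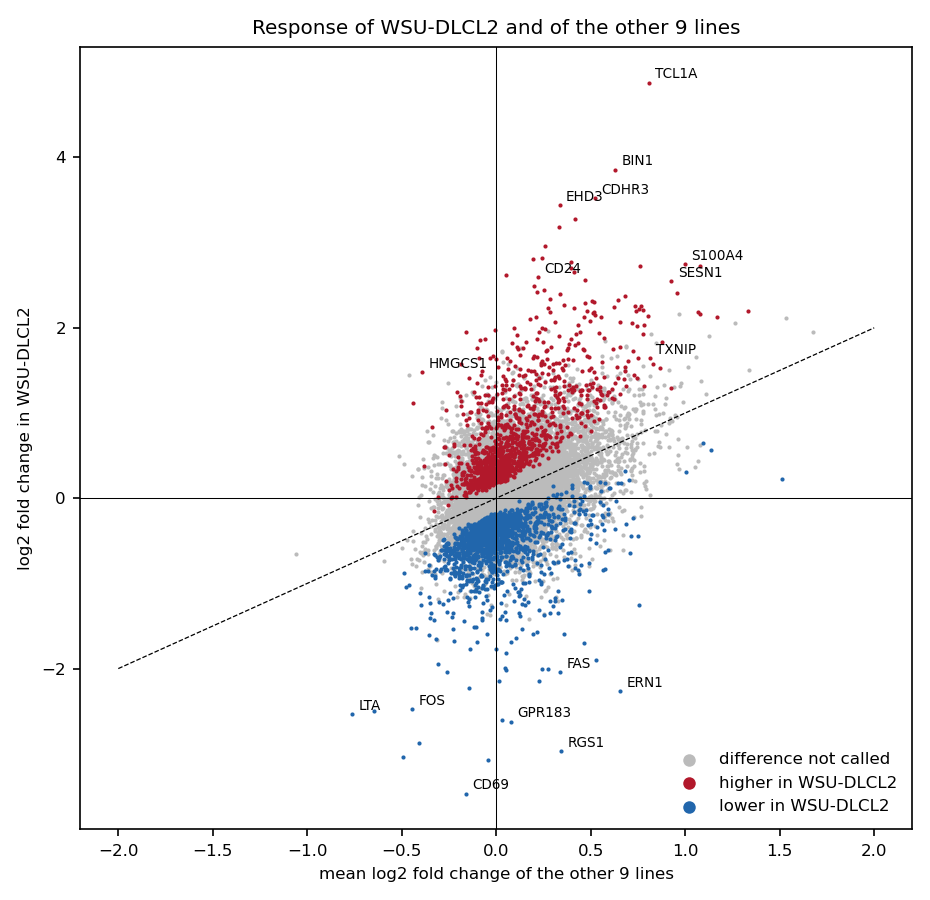
Log2 fold change of each gene in WSU-DLCL2 (vertical axis) against the mean log2 fold change of the other 9 lines (horizontal axis), 1 point per gene; the dashed line marks equal responses and coloured genes differ by limma at an adjusted p under 0.05. RGS1 and CD69 lie below the line and TCL1A and BIN1 above it.

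TCL1A, BIN1, CDHR3, EHD3, AFF3 and MYH11 were among the genes that rose more in WSU-DLCL2 than in the mean of the other lines, by 4.07, 3.23, 3.00, 3.10, 2.85 and 2.70. TCL1A also rose in KARPAS-422 (3.07) and Pfeiffer (1.29), and WSU-DLCL2 had the lowest TCL1A level of the 10 lines under DMSO. RGS1 (-3.31), CD69 (-3.31), ERN1 (-2.92) and GPR183 (-2.70) fell more than in the other lines. ERN1 rose in Pfeiffer (1.58) and KARPAS-422 (1.03). Lists differed as well from the mean of the other lines, than which 9.97% of all genes were lower and 8.28% higher. Lower were 20 of 34 amino acid stress genes, 7 of 11 NF-kB feedback genes and 13 of 25 immediate early genes. Of 19 cholesterol genes 16 were higher. In the other lines' own tests 10 of 19 cholesterol genes fell in Pfeiffer, and 9 fell and 2 rose in KARPAS-422. Their list medians there were -0.28 and -0.25. NF-kB feedback genes had 5 of 11 risen and 0 fallen in Pfeiffer (median 0.30), and immediate early genes 10 of 25 risen and 2 fallen (0.33). In Pfeiffer 14.6% of all genes rose and 9.93% fell, and in KARPAS-422 15.5% rose and 13.4% fell. Amino acid stress genes fell in other lines too, 17 of 34 in KARPAS-422, 19 in SU-DHL-10 and 20 in HT. The shares of all genes that fell there were 13.4%, 7.16% and 3%. The difference of this list above is from the mean of the other lines, and its size against these lines was not tested.

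**Figure D5:**
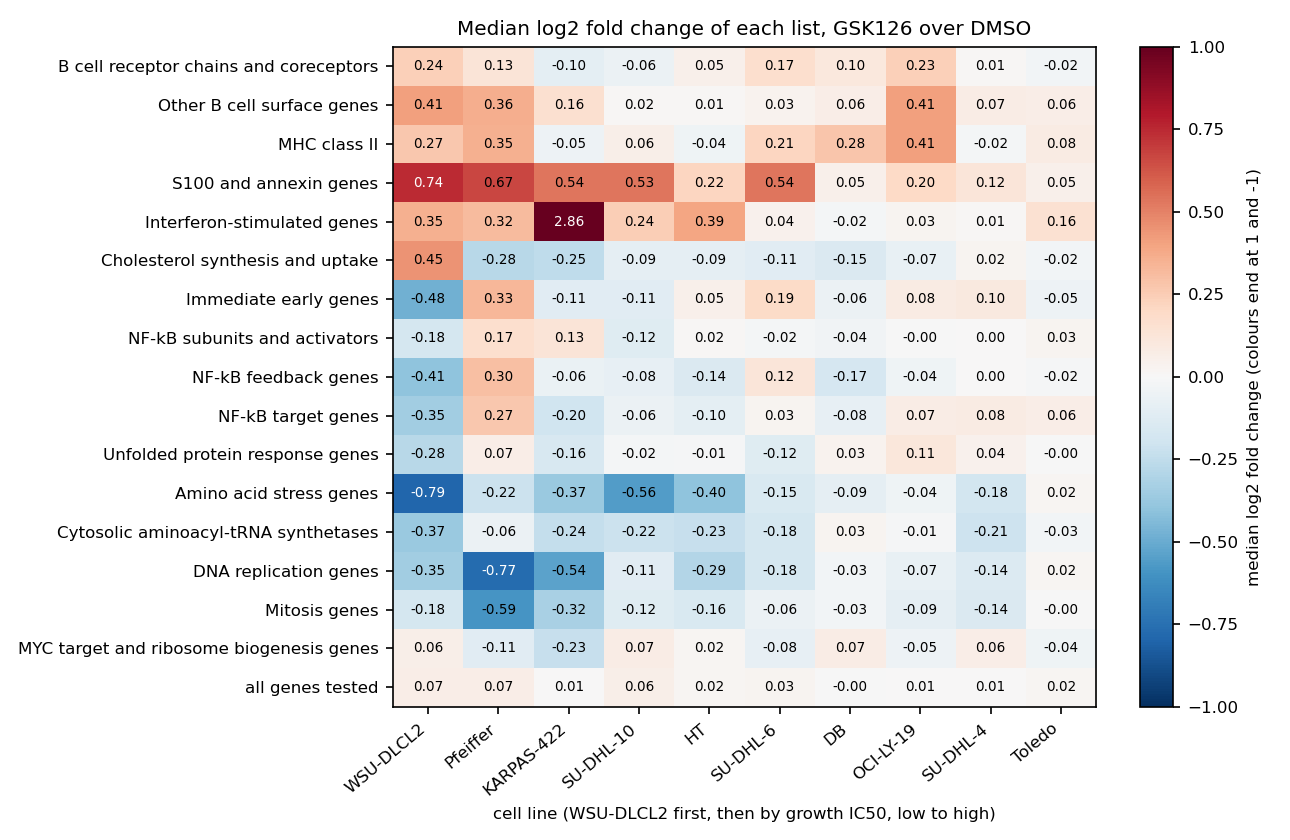
Median log2 fold change, GSK126 minus DMSO, of gene lists (rows) in each line (columns), with WSU-DLCL2 first and the other lines in order of growth IC50. WSU-DLCL2 has a cholesterol median of 0.45, against -0.28 in Pfeiffer, and an NF-kB feedback median of -0.41, against 0.30 in Pfeiffer.

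Pfeiffer, the mutant line with the lowest growth IC50, differed in 1106 genes (7.27%) with a more positive and 1392 (9.15%) with a more negative response in WSU-DLCL2. Of 1687 genes called in both lines, 293 were called in opposite directions; the same count was 144 of 1465 for SU-DHL-10 and 166 of 826 for HT. RGS1 fell in WSU-DLCL2 and rose by 2.46 in Pfeiffer, a difference of -5.42. The same held for CD69 (1.46 in Pfeiffer), FAS (1.53) and CCR7 (2.40), with differences of -4.92, -3.57 and -3.66. HMGCS1 rose in WSU-DLCL2 and fell there (-1.99 in Pfeiffer), a difference of 3.47. BASP1 was -0.32 and not called in WSU-DLCL2, against a rise of 2.89 in Pfeiffer.

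KARPAS-422, the mutant line next in growth IC50, differed in 1552 genes (10.2%) with a more positive and 1693 (11.1%) with a more negative response in WSU-DLCL2. With arrays at equal medians these counts were 2261 and 1254, so their balance rests on the scaling. Of 1928 genes called in both lines, 434 were called in opposite directions. Interferon-stimulated genes made up most of the largest negative differences. IFI44L was 0.07 in WSU-DLCL2, where it was not called, against 5.78 in KARPAS-422, a difference of -5.71. RTP4 differed by -5.43, USP18 by -4.54, DDX60 by -4.60 and the RNA sensor IFIH1 by -4.41. JCHAIN, which joins secreted antibodies, was 0.34 and not called in WSU-DLCL2, against 4.66 in KARPAS-422. EHD3 (4.01), DDAH1 (3.12) and ADGRD1 (2.93) responded more positively in WSU-DLCL2.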

How the data were processed

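RNA of each culture was taken up in Trizol, cleaned on RNeasy columns and hybridised as biotin-labelled target, per the labels' protocols. The deposited values are log2 MAS5 signals made by the authors, per the submitters' processing notes, with no MAS5 version given in these sources. MAS5 scales each array by itself. Array means on the linear scale were 499.86 to 499.88 once the top and bottom 2% of values were trimmed. No detection calls were used, and precision is limited by having 2 arrays a group.

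Probe sets were named from a table of the platform's annotation, some of it possibly out of date. The 54675 probe sets include 41091 with a single symbol, 1801 with more than 1, 11721 unnamed and 62 control sets. RefSeq's table (GRCh38.p14) held the gene ID of 41037, and 0 symbols changed. Each gene's value is that of its brightest single-symbol probe set, by the mean over 40 arrays.

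Signals were analysed as log2(signal + 17.72), the pseudocount being the median over arrays of each array's 25th percentile. In R 4.3.3, limma 3.58.1 fitted all 40 arrays with 1 mean for each of 20 groups of line and treatment, moderated variances and an intensity trend, which left 20 residual and 6.98 prior degrees of freedom. All p-values are two-sided and were adjusted by Benjamini-Hochberg over 15211 genes. Differences between lines are interaction contrasts whose replicates are arrays, so the spread between lines does not enter them. The fit was tested on simulated data.

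The line, the 61 gene lists (1281 genes, 1073 tested) and the tests were chosen with earlier results of these data known. The genes named are the 20 largest rises and 15 largest falls of at least 2-fold without overlap, up to 6 called members in the main direction and 3 in the other of each list, core members whether called or not, and the 8 largest differences each way from the other lines. The labels number the 2 arrays of a group, but same-numbered arrays did not deviate together (correlation -0.04 in WSU-DLCL2, from -0.05 to 0.07 over the 10 lines). All WSU-DLCL2 arrays carry the tag R7, whose meaning is not given. SU-DHL-10, HT, DB and SU-DHL-4 carry it too, while Pfeiffer, KARPAS-422 and Toledo carry R6 and SU-DHL-6 and OCI-LY-19 R8. A difference in response from a line of another tag therefore cannot be told apart from a difference between tags. Some members of the lists were not analysed here.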

Additional observations from a re-analysis of the deposited data

Results flagged for a closer look

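These results were singled out because the response of WSU-DLCL2 differed from that of other lines under the same contrast, by the interaction term in limma. In number, 2776 genes differed from the mean of the other 9 lines, 2498 from Pfeiffer and 3245 from KARPAS-422. All values below are log2 differences, WSU-DLCL2 response minus that of the others.

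Against the mean of the other 9 lines, the largest positive differences were TCL1A (4.07), BIN1 (3.23), EHD3 (3.10), CDHR3 (3.00), EFCAB12 (2.86), AFF3 (2.85), MYH11 (2.70) and DIPK1B (2.62). The largest negative ones were RGS1 (-3.31), CD69 (-3.31), LINC00158 (-3.03), ERN1 (-2.92), GPR183 (-2.70), GPR171 (-2.63), INHBE (-2.55) and CCPG1 (-2.46).

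Against Pfeiffer, CDHR3 (3.69), MYH11 (3.67), BIN1 (3.61), TCL1A (3.59), HMGCS1 (3.47), EFCAB12 (3.17), AFF3 (3.14) and PNMA8A (3.07) were higher. RGS1 (-5.42), CD69 (-4.92), ERN1 (-3.84), CCR7 (-3.66), FAS (-3.57), LINC00158 (-3.29), CXCL10 (-3.28) and BASP1 (-3.21) were lower. PNMA8A was not called in WSU-DLCL2 (0.69) and fell in Pfeiffer (-2.39).

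Against KARPAS-422, EHD3 (4.01), DDAH1 (3.12), BIN1 (3.10), EFCAB12 (3.09), MYH11 (2.98), ADGRD1 (2.93), CDHR3 (2.86) and DAPL1 (2.70) were higher. IFI44L (-5.71), RTP4 (-5.43), IFI16 (-4.65), IFI27 (-4.60), DDX60 (-4.60), USP18 (-4.54), IFIH1 (-4.41) and JCHAIN (-4.32) were lower. Of these 8 only IFI16 was called in WSU-DLCL2 itself (0.18), and not with any 1 of the 4 WSU-DLCL2 arrays left out.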

How the results depend on the processing

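The main fit called 4046 genes in the response. The total called was 3551 to 4370 under another pseudocount, filter, normalization, probe set rule or variance model. It was 4025 when the 4 arrays were fitted alone and 4274 with the 20 arrays of the tag R7. These are totals, and how many of the 4046 genes each setting kept is not given here. With arrays at equal medians 1376 rose and 2847 fell, of 4223 in all. Testing against a log2 fold change of 0.5 left 427 genes, 296 risen and 131 fallen. Leaving out 1 array gave 2849 to 3164 genes, 1440 to 1665 risen and 1409 to 1539 fallen; against the other 9 lines it gave 1754 to 2068, 762 to 1005 higher and 992 to 1165 lower, against Pfeiffer 1934 to 2161 and against KARPAS-422 2560 to 2937. With the replicate number as a block 3832 genes were called, and 2505, 2262 and 2985 differed from the other 9 lines, Pfeiffer and KARPAS-422; it changed none of these counts by over 1.5 times, and 19 named genes lost their call. Of 356 named genes called in the response, 350 kept their direction in every alternative and 111 also their call. On the mean of all probe sets the direction turned for 6 named genes, CAD (0.051), CFLAR (0.26), HK2 (0.19), NDUFS1 (0.057), NPC1 (0.10) and YWHAZ (-0.14). The mean ended the call of 52 other named genes. Of 209 named genes called that have other probe sets, 160 had all of them with the same sign. The cause was not tested. MAS5 is noisy at low signal, so folds of genes near the bottom on 1 side, such as BIN1 and CD69, are imprecise.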

Other observations

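Several gene groups outside the comparisons above were also measured in WSU-DLCL2, where 13.9% of all genes rose and 12.7% fell. Of 32 actin-binding and cytoskeletal genes 9 rose and 4 fell, with a median of 0.10 against 0.07 over all genes. GSN, the actin-severing protein gelsolin, rose (1.86 ± 0.21; not called on the mean of its probe sets), as did the tropomyosin TPM1 (1.10 ± 0.18) and LSP1, a leukocyte actin-binding protein (1.10 ± 0.23), while TPM4 fell (-1.44 ± 0.13). Of 21 integrins and cadherins 4 rose, ITGAV (0.81 ± 0.13), ITGB1 (0.50 ± 0.07), PCDH9 (0.92 ± 0.15) and CDHR3, and 2 fell. Of 28 lysosome and autophagy genes 10 rose and 9 fell, the acid glucosidase GAA (1.11 ± 0.18) and the protease CTSH (0.76 ± 0.10) at one end and LAMP3 (-1.35 ± 0.22) and MAP1LC3B (-0.50 ± 0.06) at the other. The falls were 4 without DMSO replicate 1 and 5 without GSK126 replicate 1.

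Of 30 cytokine receptors and signal transducers 7 rose and 4 fell: IL10RA (1.20 ± 0.19), the inhibitor SOCS1 (1.01 ± 0.16), STAT3 (0.55 ± 0.07) and JAK1 (0.55 ± 0.06) rose, and IL21R (-0.95 ± 0.15) and IFNGR1 (-0.46 ± 0.07) fell. Of 15 heat shock genes 5 rose and 1 fell, with HSPB1 at 0.97 ± 0.17 and BAG3 at 0.93 ± 0.09. Of 20 interferon-regulatory factors and nucleic acid sensors 3 rose, among them TLR10 (0.91 ± 0.08), which rose in 0 of the other lines and fell in 2 of them, and 2 fell. Of 17 MHC class I and peptide loading genes 4 rose and 0 fell. Of 21 chemokines and cytokines 3 rose, with IL16 at 1.32 ± 0.20, and 2 fell. Of 16 histone genes 2 rose and 2 fell, and of 23 oxidative phosphorylation genes 6 rose and 2 fell. Over all genes 13.9% rose and 12.7% fell. The counts for the interferon-regulatory factors and sensors, the chemokines and cytokines and the histone genes are near those shares. Among markers of other cell types 0 of 18 for T and NK cells and 0 of 8 for myeloid cells were called, and 2 of 9 for stroma and epithelium rose, DCN (0.91 ± 0.13) and ACTA2 (0.81 ± 0.18; not called on the mean of its probe sets). Of 6 erythroid and endothelial markers 1 was called, PECAM1 (0.57 ± 0.21, limma adjusted p = 0.0468; not called without any 1 of the 4 arrays, adjusted p = 0.109 to 0.175). Of 11 housekeeping genes 2 rose, TFRC (0.56 ± 0.08) and YWHAZ, with a median of 0.03.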
